A study of Mus musculus with 2 samples.

Results

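The genes described here encode CTCF, the 5 subunits that build cohesin in somatic cells, the loader NIPBL and the 3 proteins that regulate how long cohesin stays on DNA. They are 10 of the 43346 Ensembl genes in the deposited tables, namely Ctcf, Smc1a, Smc3, Rad21, Stag1, Stag2, Nipbl, Wapl, Pds5a and Pds5b, and were chosen by name for their function. The study measured polyadenylated RNA by paired-end sequencing in 2 libraries of G1E-ER4, an immortalized mouse erythroid cell line recorded as male. G1E-ER4 descends from G1E cells, which lack the erythroid transcription factor GATA1, and carries GATA1 fused to the ligand-binding part of the estrogen receptor, so that estradiol switches GATA1 on. Both libraries are of cells that had been induced to differentiate with estradiol, at a dose and for a time that the labels do not state. There was 1 group and no uninduced control, so the data give levels, transcript makeup and the spread between 2 libraries of one line, and no comparison of conditions.

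Cohesin is a ring. SMC1A and SMC3 are long ATPases joined at a hinge, the kleisin RAD21 closes the ring between their heads, and either STAG1 or STAG2 binds RAD21 as the additional subunit. NIPBL, with its partner MAU2, loads the ring on DNA and drives the extrusion of loops, WAPL opens the ring and releases it, and PDS5A and PDS5B take part both in release and in the protection of cohesin that holds sister chromatids together. CTCF is a zinc finger protein that binds DNA in an orientation-dependent way and halts cohesin, which places loop anchors and domain borders. In erythroid cells the globin genes also loop to their distal enhancers, and LDB1, described below, bridges enhancers and promoters there.

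Depth was 68901065 estimated counts for replicate 1 and 51923117 for replicate 2. The labels number them biological replicates 1 and 2, each with technical replicate number 1. Both cite the same biosample record, so the spread between them may still be technical. All 6 erythroid markers examined (Gata1, Klf1, Epor, Ank1, Hba-a1 and Hbb-bs) were present, with mean levels of 117 to 7841 TPM. Gata1 is no check of cell type here, since reads of the introduced GATA1 fusion may count for it. Of 12 markers of myeloid, lymphoid, stromal and endothelial cells none reached 1 TPM, 5 of them had 0 counts in both libraries (Lyz2, Cd3e, Ptprc, Pecam1 and Cdh5), and their summed levels were 0.65 and 0.96 TPM.

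All 10 genes were expressed at 1 TPM or more in both libraries, where TPM is a level divided by transcript length and scaled to a fixed total per library. Among 21474 protein-coding genes 39% met the same minimum. The median of the 10 genes' mean levels was 12.2 TPM, against 20.5 TPM over the 8376 protein-coding genes that met it. With only the transcripts whose annotated coding sequence is complete, the medians were 10.7 and 11.6 TPM. The levels covered a wide range. Ctcf stood at the top with 252.84 TPM in replicate 1 and 190.13 TPM in replicate 2, which gave 221 ± 44.3 TPM (SD, n = 2). Then came Rad21 with 33.8 ± 0.28 TPM, Smc3 with 33.7 ± 4.21 TPM, Wapl with 28.3 ± 8.27 TPM and Pds5a with 14.7 ± 2.09 TPM. Below these lay Stag2 with 9.72 ± 2.35 TPM, Smc1a with 6.95 ± 0.14 TPM, Nipbl with 6.66 ± 0.97 TPM, Stag1 with 6.60 ± 1.49 TPM and Pds5b with 2.25 ± 0.092 TPM. Neighbours in this order were called apart only where both libraries of one gene lay above both of the next. By that measure Ctcf, Pds5a, Stag2 and Pds5b each stood apart from both or their only neighbour, while Rad21 and Smc3, Smc3 and Wapl, Smc1a and Nipbl, and Nipbl and Stag1 overlapped.

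**Figure D1:**
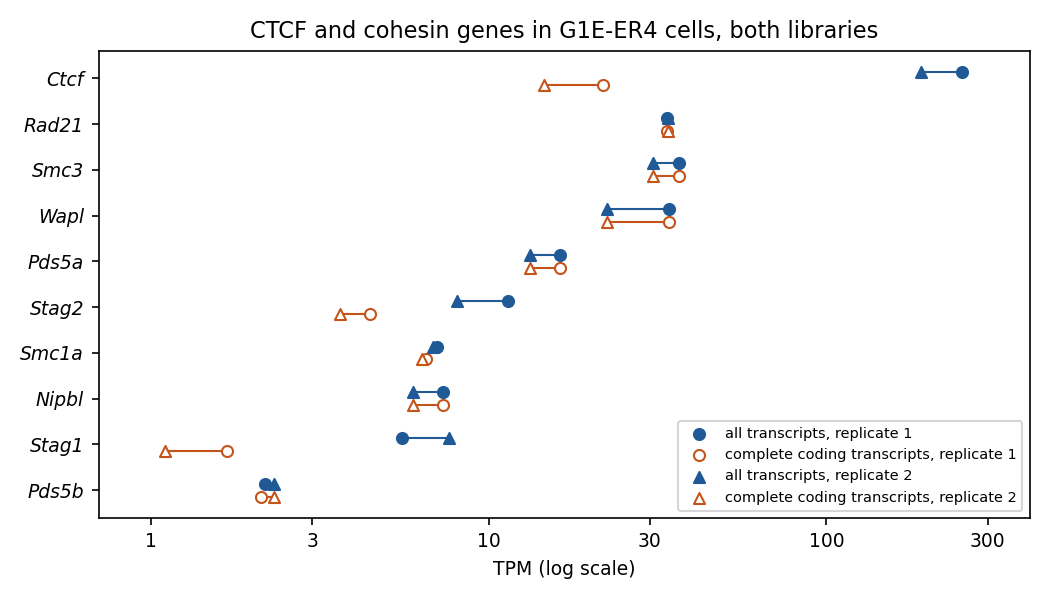
Level of each gene in TPM on a log scale. Filled blue symbols sum all transcripts of a gene, open orange symbols only its complete coding transcripts, circles are replicate 1 and triangles replicate 2, and a line joins the libraries. Ctcf drops from 190.13 to 252.84 TPM with all transcripts to 14.62 to 21.85 TPM with complete coding ones, Stag1 and Stag2 drop as well, and the other 7 genes hardly move. Of these 7, Rad21, Nipbl and Pds5a have a single transcript and cannot move.

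For Ctcf (chr8:105636568-105682922, plus strand) most of this level lay in short non-coding transcripts rather than in the transcript that encodes the protein. Ctcf-204, a processed transcript of 1554 bases with no annotated coding sequence, held 131.09 and 102.47 TPM in replicates 1 and 2, or 51.85% and 53.90% of the gene. Ctcf-206, a retained-intron transcript of 851 bases, held 96.72 and 70.97 TPM, or 38.25% and 37.33%. The coding transcript Ctcf-201, which has 3782 bases in 12 exons and encodes CTCF in 2208 of them, held 21.85 and 14.62 TPM, or 8.64% and 7.69%. In all 3 transcripts replicate 1 was the higher library, and the shares in the libraries were within 3 points of each other. None of the remaining 3 Ctcf transcripts held more than 1.23% in either library.

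The short Ctcf models differ from the coding transcript at few places, and the following sequences show the main ones. They come from the GENCODE M21 transcripts on GRCm38, read 5′ to 3′, and each crosses a junction, with the left exon in lower case and the right exon in capitals. In Ctcf-201 exon 2 ends at position 105643632 of chromosome 8 and joins exon 3 at 105663754, where the coding sequence begins after 9 bases with ATG. In Ctcf-204 the same exon 2 joins at 105666659, the start of exon 5 of Ctcf-201, whose usual partner is exon 4.
Ctcf-201 exon 2 to exon 3: tgcagccacggagagGAAGGGGAGATGGAA
Ctcf-204 exon 2 to exon 3: tgcagccacggagagGTACTCGTCCTCACA
Ctcf-201 exon 4 to exon 5: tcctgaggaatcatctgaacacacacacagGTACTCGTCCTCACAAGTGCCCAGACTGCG
Ctcf-204 therefore lacks exons 3 and 4, with 790 and 171 bases, which hold 952 coding bases including the annotated start. It also begins 11 bases earlier, takes up exon 11 at an acceptor 3 bases further on, and ends 1275 bases short of the end of Ctcf-201. Ctcf-206 begins within the gene and reads on from exon 11 at position 105680259 into the intron behind it. In the next sequence that intron is in capitals and exon 11 in lower case.
Ctcf-206 exon 3: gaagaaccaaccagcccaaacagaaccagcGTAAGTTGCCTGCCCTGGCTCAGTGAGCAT

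How far reads could tell these models apart was counted from the sequences. Of the 1524 words of 31 bases in Ctcf-204, 95.7% also occur in Ctcf-201 and 65 do not. Ctcf-206 shares 56.4% of its 821 words with Ctcf-201, and 358 words, all of which reach into the intron, are its own. Counts gave Ctcf-201 a larger part than TPM did, since the short models are divided by a short length. It held 4768.67 and 2390.88 estimated counts, or 23.9% and 21.4% of the gene's counts, against 11015.81 and 6484.36 for Ctcf-204. Across the gene 6.97% of words occur in another gene, mostly in Gm5914, a long non-coding RNA on the opposite strand with 153.73 and 90.91 counts. No label or header says whether counting used strand, so it is not known whether reads of Ctcf and Gm5914 were told apart where they overlap.

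Complete coding transcripts, here those annotated as protein coding with a complete coding sequence and both ends, were summed for every gene after the data had been seen. On this measure Ctcf, at 18.2 ± 5.11 TPM, ranked 4 after Rad21 (33.8 TPM), Smc3 (33.6 TPM) and Wapl (28.3 TPM), and its libraries overlapped those of Pds5a. Among the 8376 expressed protein-coding genes Ctcf stood at percentile 92.1 with all transcripts and at percentile 59.8 with complete coding ones. A mean complete coding share below 10% was found in 7.98% of these genes, and a share below 50% in 26.5%. Of the 10 genes Ctcf was under the first limit, and Ctcf, Stag1 and Stag2 were under the second. The other 7 genes had complete coding shares of 92.3% or more in both libraries. For Rad21, Nipbl and Pds5a, with a single transcript each in the authors' annotation, this share was fixed in advance.

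**Figure D2:**
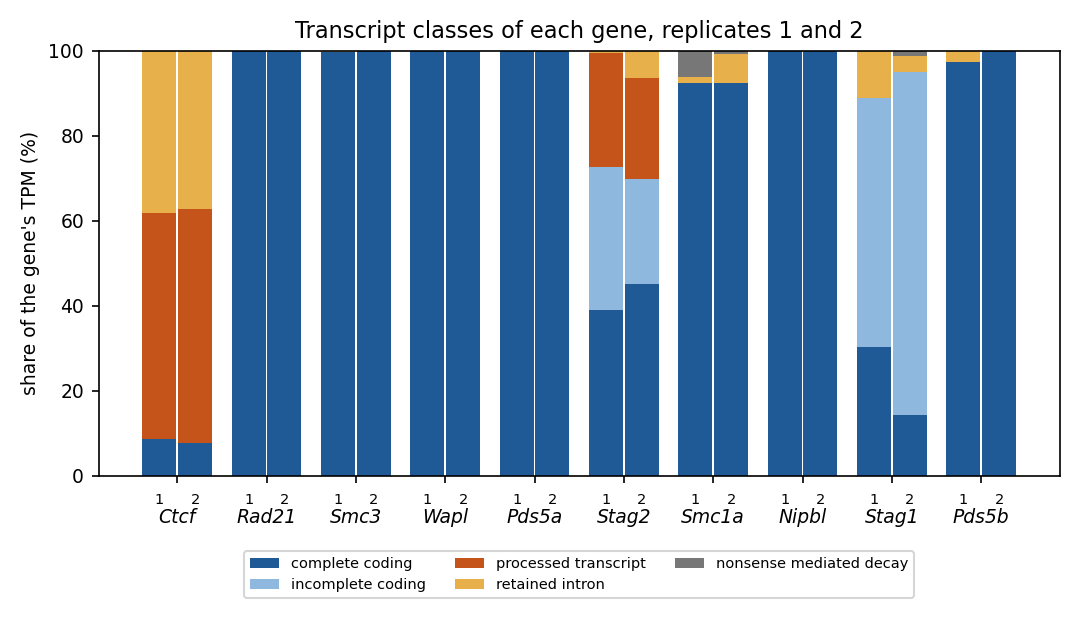
Share of each gene's TPM by transcript class, in percent, with replicate 1 as the left and replicate 2 as the right bar of each pair. Complete coding transcripts (dark blue) make up 8.64% and 7.69% of Ctcf, 30.3% and 14.4% of Stag1 and 39.1% and 45.1% of Stag2, and nearly all of 7 other genes. For Rad21, Nipbl and Pds5a, with a single transcript each, the share is fixed.

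The 3 subunits of the ring were present at unequal levels. Rad21 (chr15:51962240-51991747, minus strand), the kleisin, measured 33.62 and 34.02 TPM in replicates 1 and 2, from 6977 and 5290 counts. Smc3 (chr19:53600398-53645833, plus strand) measured 36.65 and 30.69 TPM, from 10333 and 6494 counts. The libraries of the pair overlapped, with Rad21 below Smc3 in replicate 1 and above it in replicate 2. Smc1a (chrX:152016428-152062694, plus strand), the partner of SMC3 in the ring, measured 7.05 and 6.85 TPM, from 1825 and 1308 counts, and both libraries lay below all 4 values of Rad21 and Smc3. The ratio of Smc3 to Smc1a was 5.20 in replicate 1 and 4.48 in replicate 2. Counts without division by length gave 5.66 and 4.96, and complete coding transcripts 5.61 and 4.85, with Smc3 the higher gene on each scale. Rad21-201 is the only transcript of Rad21 in the tables, Smc3-201 held 99.74% and 100% of Smc3, and Smc1a-201 held 92.38% and 92.44% of Smc1a. The rest of Smc1a was a nonsense-mediated-decay transcript with 0.44 and 0.06 TPM and retained introns with 0.10 and 0.46 TPM.

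The additional subunits Stag1 and Stag2 had low levels, and most of each in TPM came from short partial models. In estimated counts complete coding transcripts held most of both, with 91.7% and 90.2% of Stag2 and 77.0% and 58.5% of Stag1. Stag2 (chrX:42149317-42277185, plus strand) measured 11.38 and 8.06 TPM from 1679 and 1042 counts, and Stag1 (chr9:100597798-100959375, plus strand) 5.54 and 7.65 TPM from 791 and 511 counts. Stag2 lay above Stag1 in each library, by 2.05 times in replicate 1 and 1.05 times in replicate 2. With complete coding transcripts alone Stag2 had 4.44 and 3.64 TPM and Stag1 1.68 and 1.10 TPM, and the ratio was 2.64 and 3.31. Estimated counts gave 2.12 and 2.04. The ratio in replicate 2 thus ranged from 1.05 to 3.31 with the quantity used, and Stag2 was the higher gene in all of them.

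Stag1 was led by Stag1-213, an incomplete coding model of 1012 bases, with 3.24 and 3.80 TPM or 58.41% and 49.70% of the gene. The full-length transcript Stag1-206, of 6186 bases with 3774 coding, held 1.66 and 1.10 TPM, or 29.99% and 14.39%. Another short model, Stag1-207 with 583 bases, was at 0 counts in replicate 1 and at 46.23 counts in replicate 2, where these gave 2.36 TPM and 30.83% of the gene. Stag1 as a whole was thus higher in replicate 2 by TPM, while its full-length transcript was lower there. By counts Stag1-206 was the leading transcript, with 76.3% and 58.5%.
Stag1-213 passes over exons 5 and 6 of Stag1-206, 174 bases in all, which is 58 codons and keeps the reading frame. Its junction is shown against that of Stag1-206, with exon 4 in lower case and the exon joined to it in capitals.
Stag1-206 exon 4 to exon 5: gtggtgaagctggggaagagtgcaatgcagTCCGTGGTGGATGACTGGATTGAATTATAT
Stag1-213 exon 4 to exon 5: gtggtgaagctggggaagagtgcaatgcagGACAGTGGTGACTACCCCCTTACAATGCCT
Apart from the 28 words over this junction, all of Stag1-213 occurs in Stag1-206, a shared part of 97.1%.

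Stag2 had 3 transcripts with similar levels. Stag2-201, a complete coding transcript of 5825 bases, held 2.66 and 2.63 TPM, the processed transcript Stag2-208 of 699 bases 3.03 and 1.93 TPM, and the incomplete coding Stag2-205 of 295 bases 3.40 and 1.49 TPM. Stag2-205 led in replicate 1 with 29.89% and Stag2-201 in replicate 2 with 32.60%. The level of Stag2-205 rested on 27.92 and 9.93 counts, against 909.01 and 670.94 for Stag2-201. Leading transcripts differed between the libraries in 16.8% of 6302 expressed genes with more than 1 transcript, and not complete coding ones led in 25.6% of the 8376.

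The complete coding Stag2 transcripts differ by an exon. Stag2-203 contains an exon of 111 bases, or 37 codons, at chrX:42266366-42266476 that Stag2-201 and Stag2-202 pass over. Stag2-203 held 0.76 of 4.44 TPM in replicate 1 and 0.64 of 3.64 TPM in replicate 2, or 17.1% and 17.6%. The libraries differed here by under 1 point, on 275.78 ± 53.93 and 172.25 ± 42.50 estimated counts with their deposited posterior SD. Stag2-203 also has another first exon than Stag2-201, and 509 of its 6141 words are not in Stag2-201, so this share is that of the whole model and not of the exon alone. The exon is shown in capitals, below the junction that passes over it, where exon 30 is in lower case and exon 31 of Stag2-201 in capitals.
Stag2-201 exon 30 to exon 31: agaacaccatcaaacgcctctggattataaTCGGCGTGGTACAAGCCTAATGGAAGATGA
Stag2-203 exon 31: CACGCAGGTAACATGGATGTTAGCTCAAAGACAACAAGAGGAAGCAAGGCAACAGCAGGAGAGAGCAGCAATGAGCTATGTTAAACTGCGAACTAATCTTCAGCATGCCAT

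**Figure D3:**
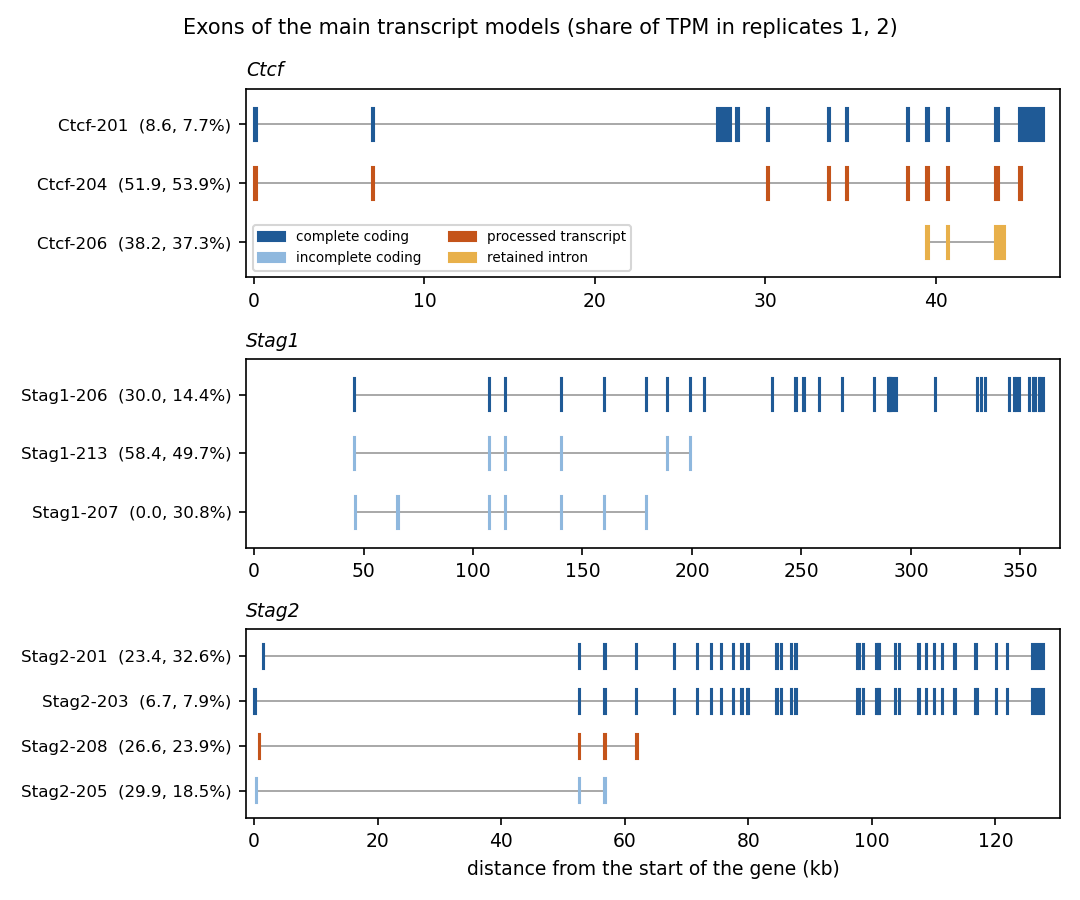
Exons (boxes) and introns (lines) of the main Ctcf, Stag1 and Stag2 models along each gene, in kb from its start, coloured by class, with the share of the gene's TPM in replicates 1 and 2 in brackets. Ctcf-204 lacks exons 3 and 4 of Ctcf-201, while the leading short models of Stag1 and Stag2 cover only the first part of each gene.

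Nipbl (chr15:8290617-8444463, minus strand), the loader and loop extrusion partner, measured 7.34 and 5.97 TPM, from 3825 and 2326 counts in a single transcript of 8815 bases in the authors' annotation. Its partner Mau2 measured 15.06 and 16.36 TPM. Both libraries of Mau2 lay above both of Nipbl, with a ratio of Nipbl to Mau2 of 0.487 and 0.365. Wapl (chr14:34673928-34747983, plus strand), the release factor, measured 34.11 and 22.42 TPM, from 11786 and 6226 counts. The ratio of Wapl to Nipbl was 4.65 in replicate 1 and 3.76 in replicate 2, and 3.08 and 2.68 in counts.

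Wapl differed between the libraries in its transcripts as well. The leading Wapl-201, of 6351 bases, held 80.15% in replicate 1 and 98.77% in replicate 2, while Wapl-205, of 4066 bases, held 19.09% and 0.01%. These rested on 1532.01 ± 100.97 and 0.24 ± 47.66 estimated counts, with the deposited posterior SD. A leading share at least 15 points apart between the libraries was found in 25.2% of the 6302 expressed genes with more than 1 transcript. Both Wapl models have the same 3600 coding bases in number, and 99.3% of the 31-base words of Wapl-205 occur in Wapl-201.
Wapl-205 removes 60 bases behind the last coding base and ends 2031 bases earlier, and its own junction, between exon 19 in lower case and exon 20 in capitals, is the part that sets it apart.
Wapl-205 exon 19 to exon 20: cttagacaaagaaaaTTGGATTTTTATGAT
Without Wapl-205 the level of Wapl-201 was 27.34 and 22.14 TPM.

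The PDS5 genes were far apart in level. Pds5a (chr5:65605721-65698273, minus strand) measured 16.22 and 13.26 TPM, from 3894 and 2385 counts in a single transcript. Pds5b (chr5:150673739-150810690, plus strand) measured 2.18 and 2.31 TPM, from 898 and 755 counts, and was the lowest of the 10 genes in TPM in each library. Stag1 was lower in counts and in complete coding TPM. The ratio of Pds5a to Pds5b was 7.44 and 5.74 in TPM and 4.34 and 3.16 in counts, and Pds5a was higher on both scales. Pds5b-201 held 84.05% and 91.51% of Pds5b.

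Pairs of these genes, one of them with Mau2, were compared as 7 ratios in all, among them Rad21 to Smc3 with 0.917 and 1.11, and Ctcf to Rad21 with 7.52 and 5.59. The last ratio turned over with complete coding transcripts alone, to 0.65 and 0.43. Fisher's exact two-sided test on the counts of each pair in the libraries gave p = 0.58 for Stag2 to Stag1. For the other 6 pairs Fisher's exact two-sided test gave adjusted p of 0.00109 or less, over the 7 pairs. This test holds counting error alone and compares these libraries. The share of calls among other gene pairs was not computed, so these 6 calls have no background. Of single genes, 69.1% differed between the libraries in an exact binomial test with counting error alone. Stag1, in the pair not called, had the fewest counts of the 10 genes, 791 and 511.

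Replicate 2 was then set against replicate 1 gene by gene, with an exact two-sided binomial test on counts scaled by TMM, adjusted by Benjamini-Hochberg over the 10861 genes whose mean count reached 10. This asks only whether the 2 libraries differ beyond counting error. Of the 10 genes 8 did, against 69.1% of all genes tested, so that a call here is the usual case. Ctcf, Smc3, Stag2, Nipbl, Wapl and Pds5a were higher in replicate 1, a direction found in 34.3% of genes, and Rad21 and Pds5b were higher in replicate 2, found in 34.7%. Wapl had the widest gap of the 10, with a log2 ratio of replicate 2 to 1 of -0.41 or 1.32 times more in replicate 1 (adjusted p = 5.88e-73, exact binomial test). Ctcf followed with -0.32 or 1.25 times (adjusted p = 9.67e-79, exact binomial test), and Pds5b was at 0.26 (adjusted p = 3.97e-04, exact binomial test). The ratio was 0.12 for Rad21, -0.16 for Smc3, -0.17 for Stag2, -0.19 for Pds5a and -0.20 for Nipbl. Smc1a at 0.034 and Stag1 at -0.12 did not pass (adjusted p = 0.577 and 0.204, exact binomial test).

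In scaled counts none of the 10 genes reached 1.5-fold, against 23.3% of all genes tested, and 9.73% of all genes reached 2-fold. All genes tested include those with a mean count as low as 10, where counting error is wide. Stag1, with the fewest counts of the 10 genes, had 791 and 511. The shares among genes of like counts were not computed. In TPM, which is scaled in another way and divided by length, Wapl passed 1.5-fold, with a log2 ratio of -0.61, and the other 9 did not. With an added coefficient of variation of 0.1 between libraries (edgeR exact test) 18.9% of genes and none of the 10 were called. With the common coefficient of variation of 0.30, which edgeR names biological, the calls were 1.52% and none. It was estimated from these same libraries taken as a single group. Few calls were thus built in, and their lack says nothing about the 10 genes. The median log2 ratio was -0.16 over the 10 genes and -0.010 over all genes tested. Scaling by library totals moved the latter to -0.12, and Rad21 then no longer passed, at 0.0088 (adjusted p = 0.786, exact binomial test).

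**Figure D4:**
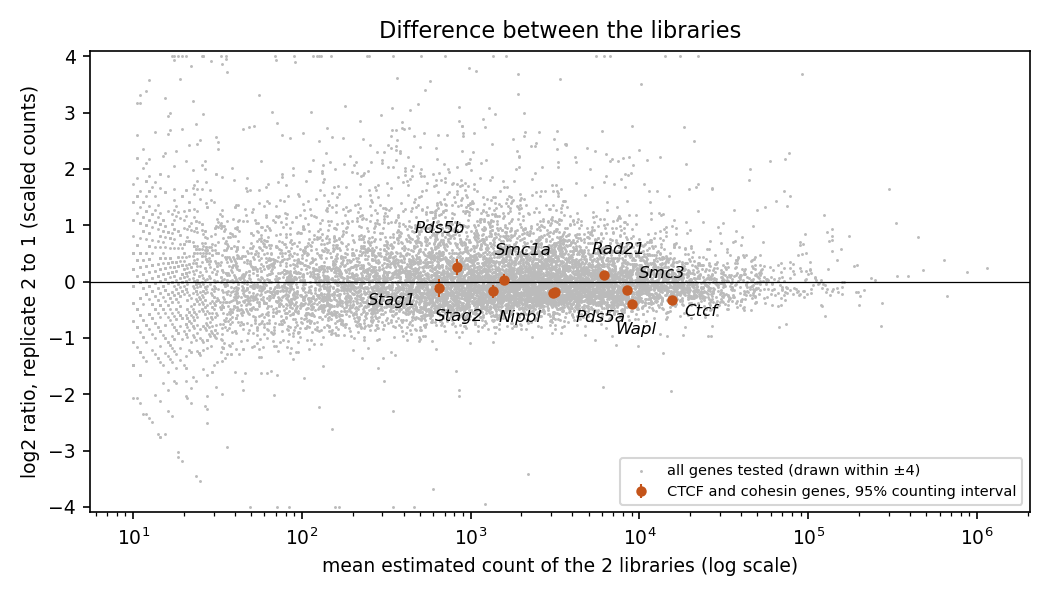
The y axis is the log2 ratio of scaled counts, replicate 2 over replicate 1, and the x axis the mean estimated count on a log scale. Grey points are the 10861 genes tested and orange points the 10 genes with 95% counting intervals. Their log2 ratios lie between -0.41 and 0.26, and the intervals reach from -0.45 to 0.41.

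In base composition the 10 genes fell in a narrow range. The GC content of each gene's longest complete coding transcript ran from 38.1% for Stag2 to 46.9% for Smc1a. For Ctcf this transcript, Ctcf-201, held 8.64% and 7.69% of the gene's TPM in replicates 1 and 2. Protein-coding genes whose mean count reached 10 were split into 10 equal groups by GC, and all 10 genes lay within the lowest 4. The median level of those groups was 3.52, 6.55, 7.88 and 10.3 TPM, and in the group of highest GC it was 37.7 TPM. Ctcf, Rad21, Smc3, Wapl and Pds5a lay above the medians of all 4 groups. Stag2 also lay above the median of its own group, at 9.72 against 3.52 TPM. Nipbl and Stag1 were just above theirs, at 6.66 and 6.60 against 6.55 TPM. Smc1a, at 6.95 against 10.3 TPM, and Pds5b, at 2.25 against 3.52 TPM, lay below. The part of GC in the levels was not tested.

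Genes of the cohesin cycle, meiotic cohesin, other architectural factors and other SMC proteins were read from a list of 31. Of these 26 were at 1 TPM or more in both libraries. In the library comparison 27 could be tested, and 18 were higher in replicate 1 and 6 in replicate 2, with a median log2 ratio of -0.24, against 34.3% and 34.7% of all genes in these directions. With the added coefficient of variation of 0.1, 6 of the 27 were called (18.9% of all genes), and with the common one none (1.52%). Past 1.5-fold were 6 (Espl1, Tipin, Dscc1, Zfp143, Smc2 and Smc4), against the 23.3% over all genes.

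Acetylation locks cohesin after replication. Esco2, the acetyltransferase of S phase, measured 13.09 and 10.41 TPM, and Esco1, which acts through the cell cycle, 2.14 and 1.73 TPM. Hdac8, which removes the mark, measured 7.87 and 5.89 TPM, and Cdca5, which encodes the WAPL antagonist sororin, 17.98 and 13.52 TPM. All 4 genes were higher in replicate 1. At anaphase separase cuts RAD21. Its gene Espl1 measured 21.66 and 31.20 TPM, higher in replicate 2 by a log2 ratio of 0.62, and Pttg1, for the separase inhibitor securin, 5.09 and 4.13 TPM. Haspin, the histone kinase that marks centromeres, measured 33.03 and 26.39 TPM. Sgo1, for shugoshin, which guards centromeric cohesin, measured 50.18 and 37.09 TPM. Its processed transcript Sgo1-202 of 506 bases held 89.87% and 92.23% of this level, and its complete coding transcripts 2.30 and 1.44 TPM. The latter held 32.9% and 28.5% of its estimated counts.  Sgo2a, at 3.83 and 2.72 TPM, shares 2374 of its 6975 words of 31 bases with Kctd18 and is uncertain.

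Factors that tie cohesion to the replication fork were all present. Timeless measured 45.61 and 39.21 TPM and its partner Tipin 2.45 and 1.5 TPM. Of the alternative clamp loader subunits Chtf8 measured 120.19 and 120.54 TPM, Chtf18 76.53 and 84.13 TPM and Dscc1 11.42 and 6.66 TPM. For Chtf18 complete coding transcripts made up 42.6% and 40.5% of TPM, and for Timeless 54.1% and 56.0%. Of estimated counts they held more, 70.4% and 71.9% for Chtf18 and 73.9% and 72.7% for Timeless. Chtf8 is uncertain, as 2672 of its 3043 words of 31 bases occur in a second gene of that name in GENCODE M21. Whether the authors' annotation M4 holds that second gene was not examined. The helicase gene Ddx11 measured 7.29 and 6.03 TPM and Wdhd1 6.16 and 8.32 TPM.

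Of the 4 cohesin genes known for meiosis only Rec8 had counts. Rec8, the meiotic kleisin that takes the place of RAD21 in germ cells, measured 49.31 and 69.92 TPM from 5820 and 6091 counts, above Rad21 in both libraries. Its complete coding transcript Rec8-201, of 2184 bases, held 95.8% and 93.83% of this, and 0.50% of its words occur in other genes. Smc1b, Stag3 and Rad21l had 0 counts in both libraries, as did Ctcfl, the germ line paralog of Ctcf. A count of 0 allows up to 3 counts, or 4.35e-06% and 5.78e-06% of the libraries' totals, for counting error only. Rec8 was higher in replicate 2 by a log2 ratio of 0.58 (adjusted p = 3.04e-105, exact binomial test).

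Other factors of chromosome folding spanned a wide range. Ldb1, which bridges enhancers and promoters in erythroid cells, measured 799.79 and 650.36 TPM, the zinc finger gene Maz 767.26 and 614.16 TPM, and Yy1 139.06 and 107.37 TPM. All 3 were almost wholly complete coding and lay above the complete coding level of Ctcf. Zfp143, which binds promoters and has been placed at loop anchors, measured 1.19 and 0.65 TPM, from 205 and 83 counts. The condensin genes Smc2 and Smc4 measured 16.82 and 17.03 TPM and 118.91 and 96.59 TPM. Complete coding transcripts held 8.74 and 4.29 TPM of Smc2 and 36.73 and 15.33 TPM of Smc4. Of estimated counts they held 91.9% and 78.0% for Smc2 and 67.3% and 47.5% for Smc4. In counts Smc2 and Smc4 were 1.61 and 1.58 times higher in replicate 1. Smc5 measured 4.51 and 4.19 TPM and Smc6 11.04 and 7.24 TPM. Smchd1 measured 18.01 and 15.05 TPM, with a retained-intron transcript leading at 59.08% and 66.59%. By counts its complete coding transcript led, with 63.5% and 55.1%.

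**Figure D5:**
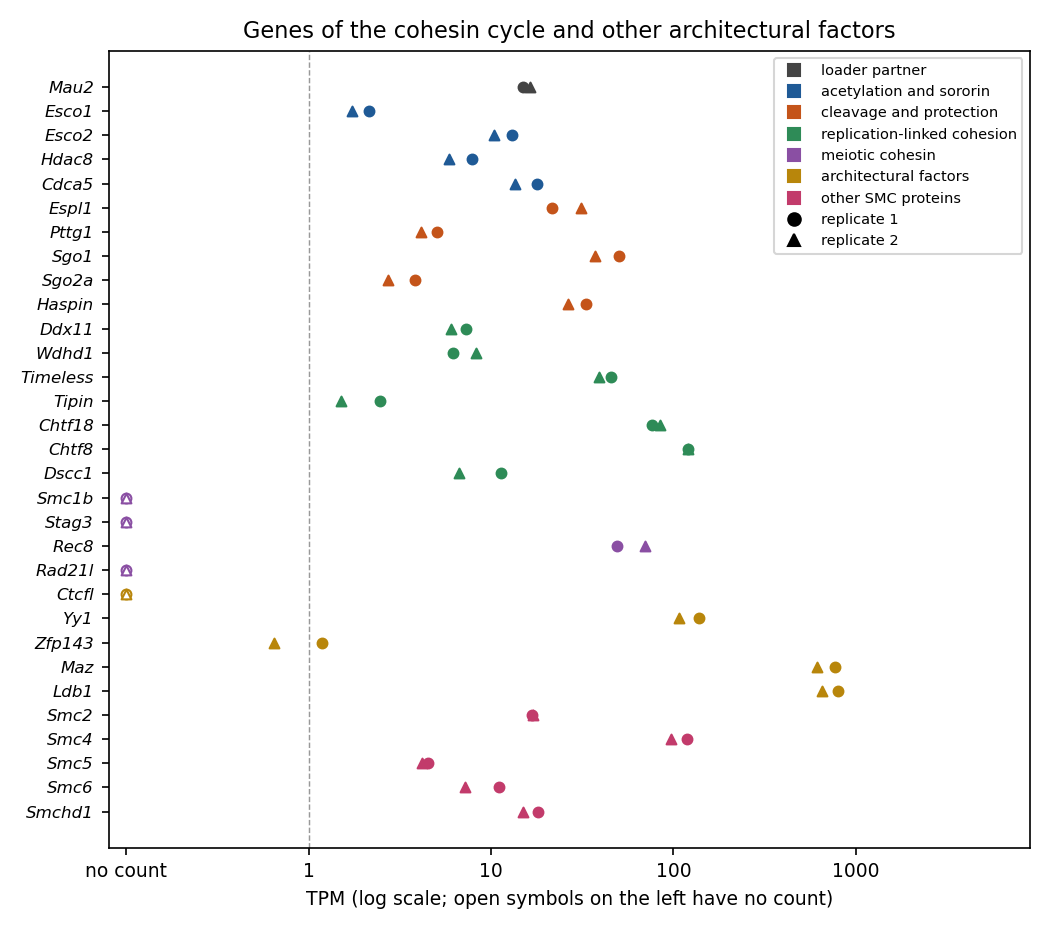
Level in TPM on a log scale of 31 genes of the cohesin cycle, meiotic cohesin, other architectural factors and other SMC proteins, coloured by role. Circles are replicate 1 and triangles replicate 2. The dashed line is 1 TPM, and genes without a count are drawn as open symbols at the left. Rec8 is the one meiotic gene with counts, at 49.31 and 69.92 TPM.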

How the data were processed

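The authors deposited a gene and a transcript table for each of 2 libraries. Per the file headers these hold expected counts (estimates, not always whole), TPM, FPKM, posterior means with their SD, and the isoform share as a percent of the gene's TPM. Per the labels and readme texts the build is mm10 and the annotation M4. For the aligner, the quantifier and strand use, nothing is given in the sources used here. Names, classes, coordinates and sequences came from GENCODE M21 on the same build, by identifier without version. All 56 transcripts of the 10 genes matched, 52 with the same length. Of 43346 Ensembl genes 42462 matched.

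The members and lists were chosen with earlier results of these data known. All 10 members are named, as are list genes at 1 TPM or more, those below it, the leading transcript of each member and others with at least 10% of the gene. Two-sided exact binomial tests (scipy 1.17.1) used rounded expected counts and TMM sizes (edgeR 4.0.16), with Benjamini-Hochberg adjustment at 0.05 over genes whose mean count reached 10. They were checked on counts simulated with counting error alone, as the tests assume. This check cannot show how they behave with further spread between libraries. Alternatives used DESeq2 1.42.0 size factors, library totals, other minimums, FPKM and posterior means. Replicate numbers come from the labels. Intervals cover counting error only.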

Additional observations from a re-analysis of the deposited data

How the results depend on the processing

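All 10 genes stayed at 1 TPM or more with FPKM, posterior means, rescaled TPM or complete coding transcripts. With 1 library left out this outcome was fixed, since each gene met the minimum in both. At minimums of 10 and 20 TPM, 5 and 4 of them remained. Of the 10 places in the order, 2 were kept with complete coding transcripts, 4 with counts scaled by library totals and not by length, and 5 to 7 with 1 library left out. The genes that differ between the libraries fell from 7500 to 2049 with an added coefficient of variation of 0.1. They fell to 165 with the common one. The members fell from 8 to 0 in each case. The common one was estimated from these same libraries, so its few calls were built in. With library totals 3065 genes were higher in replicate 2 and 4756 in replicate 1, against 3770 and 3730.

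Ratios below are geometric means of the libraries. With complete coding transcripts Ctcf to Rad21 reversed from 6.48 to 0.53, and Stag2 to Stag1 moved from 1.47 to 2.96. In expected counts Ctcf to Rad21 was 2.46, Pds5a to Pds5b 3.70 (from 6.54), Rad21 to Smc3 0.742 (from 1.008), Wapl to Nipbl 2.87 (from 4.18) and Nipbl to Mau2 0.70 (from 0.42), since counts are not divided by length. The log2 ratio between the libraries changed sign for Smc1a, from 0.034 to -0.072 with library totals and -0.042 with TPM, and for Stag1, from -0.12 to 0.47 with TPM. Stag1 passed at -0.22 with library totals. Of 184 alternative values 150 were labelled the same. The label asked for a call or direction kept, a number within 1.5-fold, or a level or ratio within the SD of the libraries. Leaving out a library cannot move a mean level or ratio past that SD, so those values were the same by arithmetic. FPKM and rescaled TPM multiply all levels of a library by a fixed factor. Pair ratios in FPKM and the orders in both could thus hardly change, and levels labelled moved there carry that factor. Complete coding levels of Rad21, Nipbl and Pds5a, with a single transcript each, were fixed as well. The 150 is therefore no measure of how stable the results are.

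No paired analysis was possible because the study has 1 group. Leaving out a library ends the comparison between libraries. With 2 libraries that cite one biosample the spread between cultures is not known, and the split of counts between transcripts with shared sequence rests on the authors' estimates.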
